A study of Mus musculus with 4 samples.

Results

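The limb identity transcription factors are the regulators that tell an embryonic limb bud whether it becomes a forelimb or a hindlimb, where along the limb a cell lies, and which side is dorsal. The 10 genes were chosen by name, with earlier results of these data known. The list holds the T-box genes Tbx3, Tbx4, Tbx5, Tbx15 and Tbx18, and the homeobox genes Pitx1, Shox2, Lmx1b, Meis1 and Meis2. These are 10 of the 24421 gene symbols in the read count table. All 10 carried reads in every library and passed the filter on low counts, which kept 11588 genes with at least 2 CPM (counts of a gene scaled to a fixed library size) in at least 2 libraries.

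The libraries were bulk RNA sequencing of fibro-adipogenic progenitors (FAPs), the stromal cells that lie between the fibres of skeletal muscle, sorted as DPPIV- and as DPPIV+ cells from each of 2 mice (n = 2 mice, 4 libraries). DPPIV is the surface peptidase encoded by Dpp4. Both populations came from wild-type mice that ate chow with a CSF1R inhibitor, which depletes macrophages, for 3 weeks and then a regular diet for 3 days, so every library carries that treatment and no untreated library was compared. Cells were gated as propidium iodide-negative, CD31-, CD45- and Sca1+. The labels name the tibialis anterior as the tissue, whereas the dissection protocol takes the muscle of both hindlimbs. The strain, sex and age of these 2 mice were not given in the labels, and the study as a whole used adults of both sexes aged 7 to 24 weeks.

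In the embryo, Tbx5 starts the forelimb bud and Tbx4 acts in the hindlimb bud, where the paired-type homeodomain protein Pitx1 sets hindlimb identity and drives Tbx4. Meis1 and Meis2, homeodomain proteins of the TALE class, mark the part of the limb nearest the trunk and are induced there by retinoic acid, and Shox2 is needed for growth of that same proximal segment. Lmx1b, a LIM homeodomain protein, makes tissue dorsal in response to Wnt7a from the dorsal ectoderm. Tbx3 is a repressor needed for posterior digits, and Tbx15 and Tbx18 act in the connective tissue and skeleton of the limb and trunk. Connective tissue cells of adult limbs are known to keep part of such positional gene expression.

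Because several of these genes have a close relative, the coding sequences of the relatives were compared in GENCODE M21 on GRCm38 to see how far reads could be told apart. Tbx4 lies on the plus strand of chr11:85886422-85916097 and Tbx5 on the plus strand of chr5:119832668-119885219. Their most similar 60-base coding window crosses from exon 5 of 8 into the next exon of Tbx4 and from exon 6 of 9 into the next exon of Tbx5. In each pair of lines, capitals mark the bases that differ, written 5′ to 3′ on the coding strand.
Tbx4: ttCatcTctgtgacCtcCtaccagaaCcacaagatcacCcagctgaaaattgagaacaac
Tbx5: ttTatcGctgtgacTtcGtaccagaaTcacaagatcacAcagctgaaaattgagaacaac

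The windows had 54 identical and 6 different bases, and the longest stretch shared without a mismatch was 23 bases. Tbx15 (plus strand, chr3:99240381-99354259) and Tbx18 (minus strand, chr9:87702800-87731260) were as close, with 54 identical bases in a coding window that starts in exon 3 of 8 of each gene.
Tbx15: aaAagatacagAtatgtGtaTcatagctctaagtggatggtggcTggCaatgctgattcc
Tbx18: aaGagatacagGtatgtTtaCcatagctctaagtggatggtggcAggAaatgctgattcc

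Tbx3 (plus strand, chr5:119670669-119684724) and its relative Tbx2 (plus strand, chr11:85832551-85841948) shared 53 of 60 bases in exon 1, and at most 14 bases without a mismatch.
Tbx2: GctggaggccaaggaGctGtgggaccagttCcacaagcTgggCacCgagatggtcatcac
Tbx3: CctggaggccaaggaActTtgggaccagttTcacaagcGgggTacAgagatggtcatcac

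Meis1 (minus strand, chr11:18879817-19018985) and Meis2 (minus strand, chr2:115863064-116065839) were the closest pair, with a shared coding stretch of 32 bases.
Meis1 and Meis2: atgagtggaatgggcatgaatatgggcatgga

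These stretches are short beside the lengths of the transcripts, and whether the authors' counting split reads inside them is not given in the sources used here. Of the remaining genes, Pitx1 lies on the minus strand of chr13:55825051-55836192, Shox2 on that of chr3:66971727-66981771, Lmx1b on that of chr2:33560965-33640511, and Lmx1a, the relative of Lmx1b, on the plus strand of chr1:167689237-167848741. Some of these T-box genes sit in pairs on a chromosome: Tbx5 lies 147943 bases from Tbx3 on chromosome 5, and Tbx4 lies 44473 bases from Tbx2 on chromosome 11.

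The libraries held 18240110 to 20879405 reads on genes, and 3 counts were worth 0.1437 to 0.1645 CPM. Dpp4, the gene of the sort, had 1879 (mouse 1) and 776 (mouse 2) reads in the DPPIV- libraries, and 13106 and 10476 in the DPPIV+ libraries. Of the FAP markers, Pdgfra had 21129 to 34676 reads and Ly6a, which encodes Sca1, 18826 to 26544 reads in each library, whereas the leukocyte gene Ptprc had 117 to 204 and the endothelial gene Pecam1 204 to 427. Marker lists of other cell types were read in the same fit. Of the mural cell genes 7 of 8 were lower in DPPIV+ FAPs (5 in DESeq2). Of the tenocyte genes 5 of 6 were higher (5 in DESeq2), while Thbs4 was lower in edgeR alone. Of the endothelial genes 5 of 6 were lower in edgeR and 0 in DESeq2, and Tek was higher by 2.67-fold in both tools, which took the summed list from 256 and 189 CPM in DPPIV- FAPs to 507 and 463 CPM in DPPIV+ FAPs. Of the tested genes, 2 of 5 macrophage and leukocyte markers were lower (0 in DESeq2), as were 2 of 4 glial and perineurial markers (2 in DESeq2), and 0 of 4 myofibre markers was called. The satellite cell gene Pax7 had 7 to 10 reads, and Chrnb1 of the same list was lower (128, 144, 47 and 81 reads, not called by DESeq2). The keratinocyte genes Krt5, Krt14 and Krt15 had 0 reads, and Trp63 of that list was lower in both tools (64, 45, 12 and 15 reads). In all genes tested, 33.0% were called different between the populations (p under 0.05 after Benjamini-Hochberg adjustment over these genes, in the quasi-likelihood test of edgeR), 15.9% higher and 17.2% lower in DPPIV+ FAPs.

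The first question was which of the 10 genes differ between DPPIV+ and DPPIV- FAPs of the same mice. Pitx1, Tbx5 and Meis2 were higher in DPPIV+ FAPs, Tbx4 and Tbx15 were lower, and the other 5 genes did not pass the threshold. The 5 of 10 members called stand beside the 33.0% of all genes tested. Because the members were chosen with earlier results of these data known, this is not an independent test of the list. DESeq2 called 3 of the members, Pitx1 and Tbx5 higher and Tbx4 lower, where it called 16.6% of all genes, 7.97% higher and 8.59% lower. In 7 members the libraries of the populations did not overlap, 4 above and 3 below, where 56.3% of all genes did not overlap. The median log2 fold change of the members was 0.10, and that of all genes was 0.00. The median size of the log2 fold change without its sign was 0.24 for the members and 0.16 for all genes. In bulk samples, a difference in the number of expressing cells and a difference in RNA per cell cannot be told apart.

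**Figure D1:**
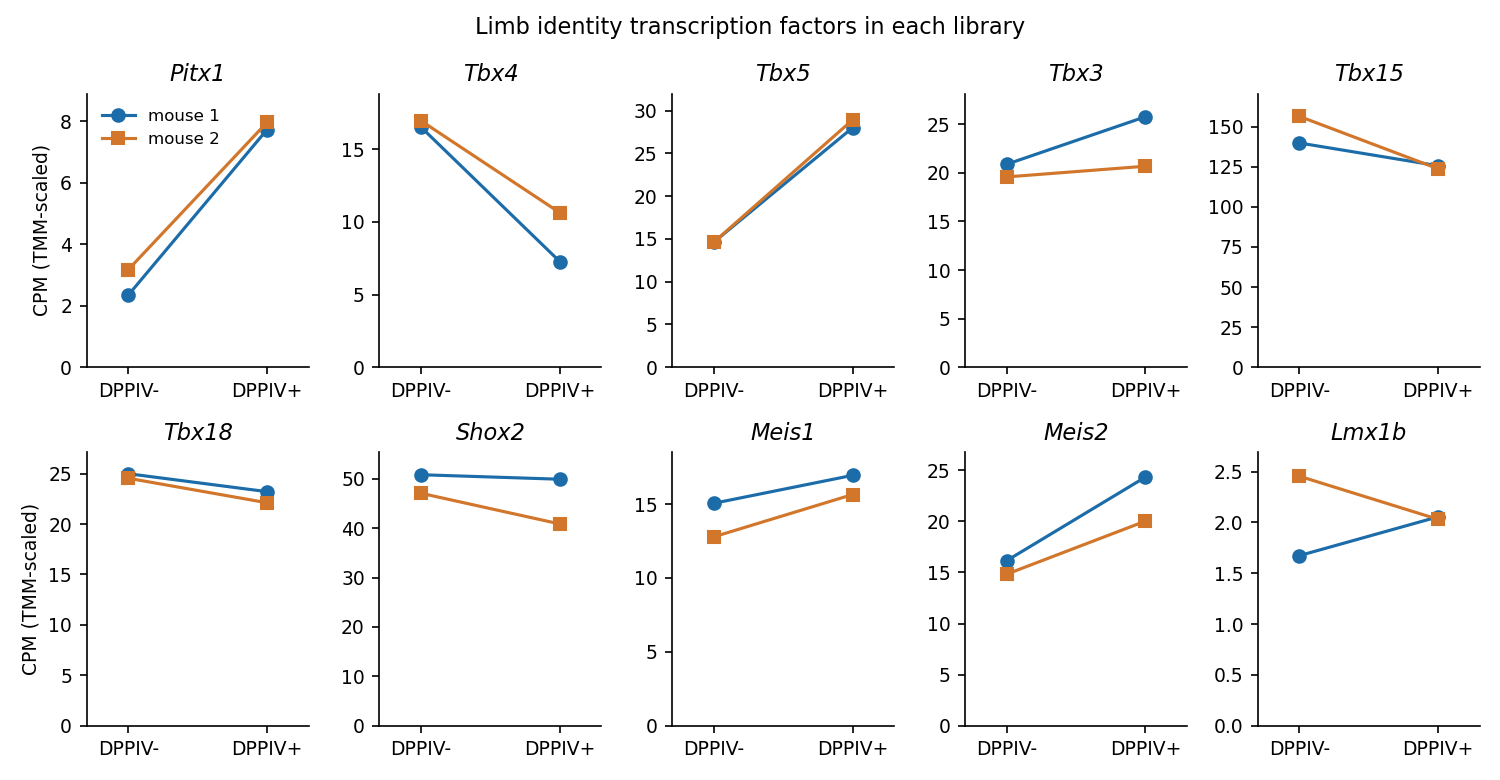
Level of each of the 10 genes in each library, in CPM scaled by TMM on linear axes that start at 0, with DPPIV- FAPs on the left, DPPIV+ FAPs on the right, and 1 line for each mouse. Pitx1 and Tbx5 run upward and Tbx4 downward in both mice, while the lines of Lmx1b cross.

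Pitx1, the hindlimb regulator, had the largest fold change of the 10. The DPPIV- libraries held 49 reads in mouse 1 and 62 in mouse 2, and the DPPIV+ libraries 139 and 145, which is 2.342 and 3.17 CPM against 7.72 and 7.955 CPM. Both DPPIV+ libraries lay above both DPPIV- libraries, as was the case for 27.8% of all genes tested. The mean rose from 2.756 ± 0.5855 to 7.837 ± 0.1662 CPM (SD, n = 2), a log2 fold change of 1.51 (SE 0.22, 95% interval 1.09 to 1.94) or 2.86-fold, with an adjusted p of 2.31e-11 in edgeR's quasi-likelihood test. The log2 ratio was 1.72 in mouse 1 and 1.33 in mouse 2. DESeq2 gave a wider 95% interval, 0.80 to 2.25 (SE 0.37). Pitx1 passed the threshold in all 11 alternative analyses that gave a test, with adjusted p from 1.28e-12 to 0.0185. Its exons overlap 165 bases of the antisense gene Gm47071 and 108 bases of Gm28760 on the same strand (not analysed here).

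Tbx4, which Pitx1 drives in the embryonic hindlimb, differed in the opposite direction. It had 346 and 332 reads in DPPIV- FAPs and 131 and 194 reads in DPPIV+ FAPs, or 16.53 and 16.97 CPM against 7.275 and 10.64 CPM. Both DPPIV+ libraries were below both DPPIV- libraries, as for 28.6% of all genes. The 2 DPPIV- libraries were close to each other, and the DPPIV+ library of mouse 1 was lower than that of mouse 2. The mean fell from 16.75 ± 0.3102 to 8.959 ± 2.381 CPM (SD, n = 2), a log2 fold change of -0.91 (SE 0.14, 95% interval -1.18 to -0.64) or 1.88-fold, with an adjusted p of 2.93e-10 in edgeR's quasi-likelihood test. The log2 ratio was -1.18 in mouse 1 and -0.67 in mouse 2, near the ends of that interval. DESeq2 gave a wider 95% interval, -1.41 to -0.43 (SE 0.25). The 11 tested alternatives gave values from -1.20 to -0.65 and adjusted p from 3.83e-11 to 0.0409, all past the threshold.

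Tbx5, the forelimb counterpart of Tbx4, was read in all 4 libraries of these hindlimb cells. It had 306 and 286 reads in DPPIV- FAPs and 504 and 527 reads in DPPIV+ FAPs. In CPM this was 14.62 in both DPPIV- libraries and 27.99 and 28.91 in the DPPIV+ libraries, so the mice of each population were nearly alike and the populations did not overlap. The mean rose from 14.62 ± 0.001023 to 28.45 ± 0.6509 CPM (SD, n = 2), a log2 fold change of 0.96 (SE 0.11, 95% interval 0.75 to 1.17) or 1.94-fold, with an adjusted p of 1.39e-18 in edgeR's quasi-likelihood test. The log2 ratio was 0.94 in mouse 1 and 0.98 in mouse 2. DESeq2 gave a wider 95% interval, 0.59 to 1.34 (SE 0.19). Tbx5 passed in all 11 tested alternatives, with values from 0.92 to 0.98 and adjusted p from 7.58e-20 to 0.0051.

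Set against each other, the balance of reads between the 2 paralogs differed between the populations. Of the reads on Tbx4 and Tbx5 together, Tbx5 took 46.9% in the DPPIV- library of mouse 1 (exact Clopper-Pearson 95% interval 43 to 50.8, 652 reads) and 46.3% in that of mouse 2 (42.3 to 50.3, 618 reads). In DPPIV+ FAPs it took 79.4% (76 to 82.5, 635 reads) and 73.1% (69.7 to 76.3, 721 reads). The share was thus higher in DPPIV+ FAPs of both mice by more than the counting error, which is the error these intervals cover. Both DPPIV- intervals took in an even split, and the shares are not corrected for the lengths of the genes. The 2 genes summed to 31.16 and 31.59 CPM in DPPIV- FAPs and to 35.27 and 39.55 CPM in DPPIV+ FAPs. Pitx1 had 0.142 and 0.187 reads for each read of Tbx4 in DPPIV- FAPs and 1.06 and 0.747 in DPPIV+ FAPs.

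**Figure D2:**
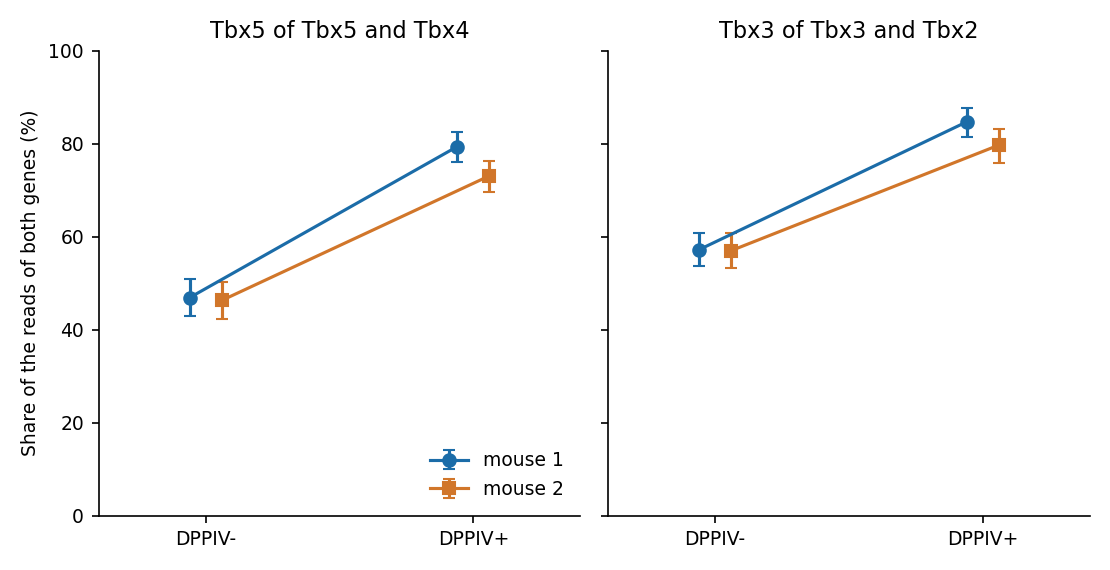
Share of the reads of 2 related T-box genes that fell on 1 of them, in percent, by population and mouse, with exact 95% intervals for counting error. Tbx5 went from 46.9% and 46.3% to 79.4% and 73.1% of the reads of Tbx4 and Tbx5, and Tbx3 from 57.2% and 57% to 84.7% and 79.7% of the reads of Tbx2 and Tbx3.

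Among the members, Tbx4 is the one past the threshold in both tools with an entry in the RefSeq promoter table. The 250 bases before its RefSeq start, on the plus strand of GRCm38.p6 at chr11:85896515-85896764, lie inside the gene as GENCODE M21 draws it.
Tbx4 promoter: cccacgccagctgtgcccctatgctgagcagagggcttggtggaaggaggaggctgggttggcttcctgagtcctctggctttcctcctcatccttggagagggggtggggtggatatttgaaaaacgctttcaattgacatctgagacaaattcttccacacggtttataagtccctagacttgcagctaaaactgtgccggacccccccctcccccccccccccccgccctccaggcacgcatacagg

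The window has a GC content of 58.4%. On either strand it held neither the T-box half-site GGTGTG, found in 16.3% of 32817 windows of that length, nor the bicoid-type motif TAATCC of Pitx proteins, found in 6.25%. The Meis motif TGACAG (15.9% of windows) and the homeodomain motif TAATTA (4.85%) were not in it either. Tbx18, Shox2, Lmx1b, Meis1 and Meis2 also had entries, and of these Meis1 held 1 match, to GGTGTG. Tbx3, Tbx5, Tbx15 and Pitx1 had none in the table.

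Tbx3, the repressor that neighbours Tbx5, did not pass the threshold. It had 20.88 and 19.58 CPM in DPPIV- FAPs and 25.77 and 20.68 CPM in DPPIV+ FAPs (437, 383, 464 and 377 reads), and the populations overlapped. The log2 fold change was 0.20 (SE 0.10, 95% interval -0.01 to 0.40, in DESeq2 -0.18 to 0.57), with an adjusted p of 0.142 in edgeR's quasi-likelihood test. Its relative Tbx2, a repressor of the same subfamily that neighbours Tbx4, had 327 and 289 reads in DPPIV- FAPs and 84 and 96 in DPPIV+ FAPs. Tbx2 was lower by 3.06-fold, a log2 fold change of -1.61 (SE 0.16), with an adjusted p of 2.5e-22 in edgeR's quasi-likelihood test. The share of Tbx3 in the reads of both rose from 57.2% and 57% in DPPIV- FAPs to 84.7% and 79.7% in DPPIV+ FAPs, with exact intervals of 53.2 to 60.8 at most in the first and 75.8 to 87.6 in the second. Tbx3 shares 115 exon bases with the antisense gene Tbx3os1.

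Tbx15 and Tbx18 form the other T-box pair. Tbx15, needed for limb bones and also known in muscle and fat, was the most abundant of the 10 genes, with 2927 and 3061 reads in DPPIV- FAPs and 2263 and 2257 in DPPIV+ FAPs. These are 139.9 and 156.5 CPM against 125.7 and 123.8 CPM, and the populations did not overlap. The log2 fold change was -0.25 (SE 0.07, 95% interval -0.38 to -0.12) or 1.19-fold lower, with an adjusted p of 0.000913 in edgeR's quasi-likelihood test. It rested on the test and the libraries: the adjusted p was 0.133 in DESeq2, within a range of 9.18e-05 to 0.35 over 11 tested alternatives, of which 6 passed. Without the DPPIV- library of mouse 2 the log2 fold change was -0.17 (edgeR adjusted p = 0.35), and without the DPPIV+ library of mouse 1 or of mouse 2 the adjusted p was 0.289 or 0.323.

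Tbx18, known in the limb and trunk mesenchyme and in pericytes, had 523 and 480 reads in DPPIV- FAPs and 418 and 403 in DPPIV+ FAPs, or 24.99 and 24.54 CPM against 23.21 and 22.11 CPM. Its log2 fold change was -0.13 (SE 0.10, 95% interval -0.32 to 0.07, in DESeq2 -0.49 to 0.23), with an adjusted p of 0.36 in edgeR's quasi-likelihood test. The 4 libraries still did not overlap between populations. The summed mural cell markers were 617 and 652 CPM in DPPIV- and 407 and 487 CPM in DPPIV+ FAPs. Most of each sum was Pdgfrb (465.8, 500.1, 351.6 and 416.8 CPM), whereas Mcam had 5.591, 4.55, 3.221 and 2.524 CPM. Pdgfrb was lower in DPPIV+ FAPs by 1.26-fold, Mcam by 1.76-fold, Rgs5 by 1.34-fold and Myh11 by 1.21-fold (not called). Abcc9 was lower by 5.11-fold, Notch3 by 3.03-fold, Kcnj8 by 2.5-fold and Cspg4 by 2.41-fold. The part of mural cells in the levels of Tbx15 and Tbx18 was not tested. Tbx18 made up 13.6% to 15.6% of the reads of Tbx15 and Tbx18 in the 4 libraries. Its exons share 970 bases with D030062O11Rik on the opposite strand.

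Shox2, the factor of the proximal limb skeleton, did not pass the threshold. It had 50.84 and 47.08 CPM in DPPIV- FAPs and 49.93 and 40.87 CPM in DPPIV+ FAPs (1064, 921, 899 and 745 reads). The populations overlapped, and mouse 1 was above mouse 2 in each. The log2 fold change was -0.11 (SE 0.07, 95% interval -0.26 to 0.03, in DESeq2 -0.40 to 0.17), with an adjusted p of 0.271 in edgeR's quasi-likelihood test. Its sign turned, to 0.03, without the DPPIV+ library of mouse 2. Shox2 shares 153 exon bases with Rsrc1 on the opposite strand, and Rsrc1 had 752 to 856 reads.

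The 2 Meis genes both had higher values in the DPPIV+ libraries, and Meis2 passed the threshold. Meis2 had 338 and 290 reads in DPPIV- FAPs and 438 and 365 in DPPIV+ FAPs, or 16.15 and 14.83 CPM against 24.33 and 20.02 CPM, without overlap. Its log2 fold change was 0.52 (SE 0.11, 95% interval 0.30 to 0.73) or 1.43-fold, with an adjusted p of 2.2e-05 in edgeR's quasi-likelihood test. The call rested on the test and the libraries: the adjusted p was 0.0646 in DESeq2, within a range of 8.7e-06 to 0.2 over 11 tested alternatives, of which 8 passed. It was 0.0696 in edgeR without the DPPIV- library of mouse 2 and 0.2 without the DPPIV+ library of mouse 1, where the log2 fold change was 0.37.

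Meis1 had 15.05 and 12.78 CPM in DPPIV- FAPs and 16.94 and 15.64 CPM in DPPIV+ FAPs (315, 250, 305 and 285 reads). Its log2 fold change was 0.23 (SE 0.12, 95% interval -0.02 to 0.47, in DESeq2 -0.20 to 0.67), with an adjusted p of 0.159 in edgeR's quasi-likelihood test. The libraries of the populations still did not overlap. Meis2 took 51.8% and 53.7% of the reads of both genes in DPPIV- FAPs and 59% and 56.2% in DPPIV+ FAPs, and the exact intervals of the populations overlapped (at most 58 in the first and at least 52.2 in the second). Meis1 exons share 1029 bases with Gm37818 on the same strand and 896 bases with Gm16140 on the opposite strand.

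Lmx1b, the dorsal determinant, was the lowest of the 10 genes, with 35 and 48 reads in DPPIV- FAPs and 37 and 37 in DPPIV+ FAPs. These are 1.673 and 2.454 CPM against 2.055 and 2.03 CPM, so both DPPIV+ libraries lay between the DPPIV- libraries. The log2 fold change was 0.00 (SE 0.28), and its edgeR 95% interval of -0.56 to 0.55 is the widest of the members. The DESeq2 interval was wider still, -1.10 to 1.12 (SE 0.57). For Lmx1b, a difference of that size in either direction was thus not excluded with 2 mice and this depth. Its relative Lmx1a had more reads and was higher in DPPIV+ FAPs, with 226 and 225 reads in DPPIV- and 378 and 399 in DPPIV+ libraries, or a log2 fold change of 0.94 (SE 0.12) and an adjusted p of 1.16e-13 in edgeR's quasi-likelihood test. Of the reads on both genes, Lmx1b took 13.4% (exact 95% interval 9.52 to 18.2) and 17.6% (13.3 to 22.6) in DPPIV- FAPs and 8.92% (6.36 to 12.1) and 8.49% (6.05 to 11.5) in DPPIV+ FAPs.

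**Figure D3:**
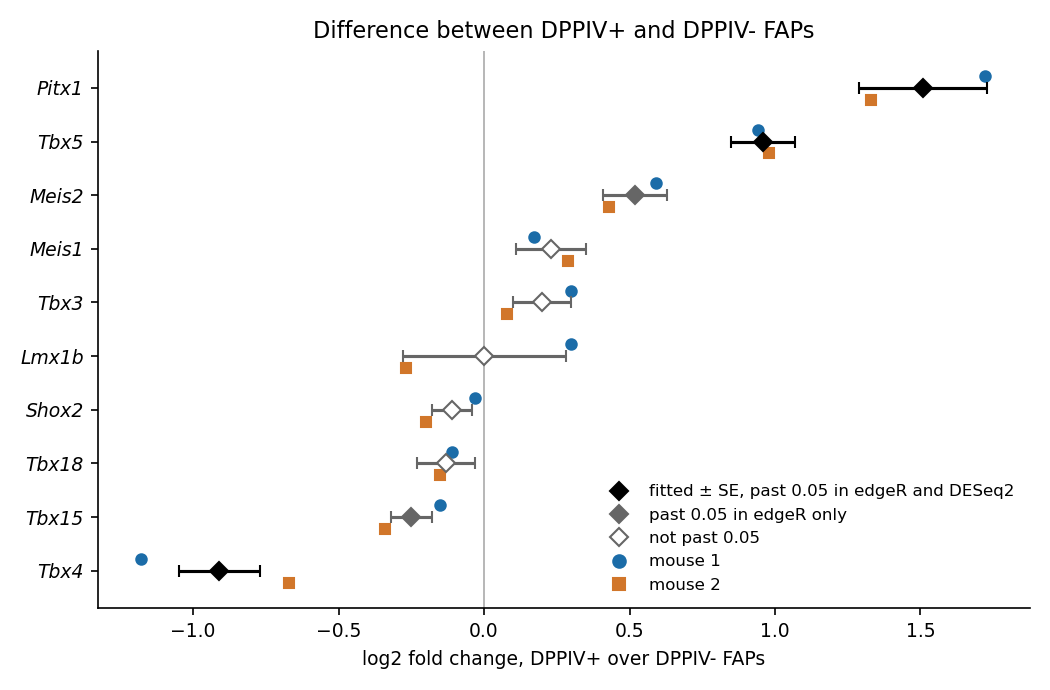
Log2 fold change of DPPIV+ over DPPIV- FAPs for each of the 10 genes, with diamonds and bars for the fitted value ± SE and a circle and a square for the log2 ratio in mouse 1 and mouse 2. Filled black diamonds passed the threshold in edgeR and DESeq2 (Pitx1, Tbx5, Tbx4), filled grey ones in edgeR alone (Meis2, Tbx15), and the mice lie on opposite sides of 0 for Lmx1b.

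The members were also compared between the mice. Of the 10 genes, 9 had the same direction of difference between populations in both mice, as did 72.9% of all genes tested, and Lmx1b was the exception with 0.30 in mouse 1 and -0.27 in mouse 2. No member passed the threshold for mouse 2 against mouse 1 in edgeR's quasi-likelihood test or in DESeq2, where 8.98% of all genes did in edgeR and 0.949% in DESeq2. An unadjusted p under 0.05 in edgeR was found for 2 of the 10 members and for 20.3% of all genes. The lowest adjusted p of the mouse term in edgeR was that of Shox2, 0.0778, with a log2 difference of -0.20.

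Levels of different genes were set side by side per length, as RPKM, which is CPM divided by the annotated exon length in kilobases. In DPPIV- FAPs the order ran from Tbx15 (mean 39.55 RPKM) and Shox2 (14.79) through Tbx18 (5.249), Tbx4 (4.926), Tbx5 (3.128) and Tbx3 (3.054) to Meis1 (1.321), Meis2 (1.286), Pitx1 (1.037) and Lmx1b (0.4228). With this length, the union of a gene's exons, Tbx5 and Tbx3 were not apart beyond the spread of the 2 mice, nor were Meis1 and Meis2. In DPPIV+ FAPs Tbx5 stood at rank 3 with 6.086 RPKM, after Tbx15 (33.29) and Shox2 (13.71). Tbx18 (4.803), Tbx3 (3.506), Pitx1 (2.951), Tbx4 (2.634), Meis2 (1.841), Meis1 (1.546) and Lmx1b (0.4185) followed it. Tbx4 thus went from rank 4 to rank 7, and Pitx1 from rank 9 to rank 6. In DPPIV+ FAPs the library range of Tbx4, 2.139 to 3.129 RPKM, took in that of Pitx1 and the lower value of Tbx3. Against the 11186 tested genes with a length, Tbx15 was above 91.1% and Shox2 above 77.1%, whereas Pitx1 was above 22.8% and Lmx1b above 2.28%.

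Summed over the 10 genes, the level was 303 and 312.5 CPM in DPPIV- FAPs and 310.9 and 292.7 CPM in DPPIV+ FAPs, with Tbx15 giving 40.4% to 50.1% of it. The populations overlapped in this sum while its composition differed. The length used matters for Meis2, whose mean over the 4 libraries was 1.564 RPKM with the union of its exons and 5.065 RPKM with its longest transcript. With the longest transcript, Meis2 (4.166 RPKM) stood apart from Meis1 (1.843 RPKM) in DPPIV- FAPs. The order above then changed. Meis2 had rank 5 in DPPIV- and rank 4 in DPPIV+ FAPs, Tbx4 ranks 3 and 8, and Tbx5 ranks 7 and 3.

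**Figure D4:**
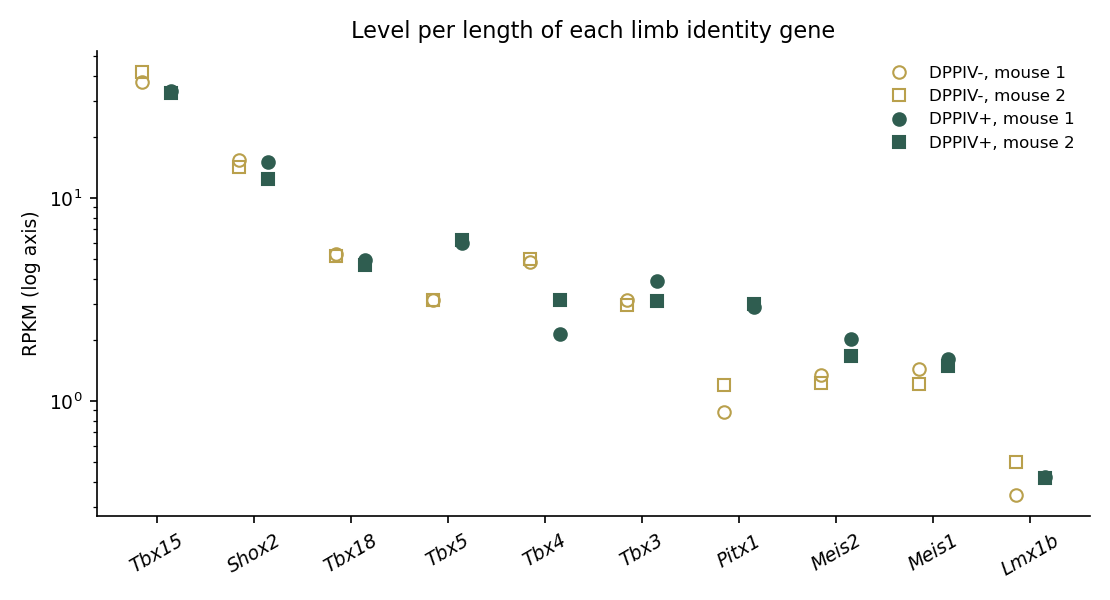
Level per length of the 10 genes in each library, in RPKM on a log axis, with open symbols for DPPIV- and filled symbols for DPPIV+ FAPs, and circles for mouse 1 and squares for mouse 2. Tbx15 and Shox2 lie above the rest in every library, and the filled symbols stand apart upward for Tbx5 and Pitx1 and downward for Tbx4.

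The genes around the 10 were read from lists of the same families and of limb patterning. Of 12 other T-box genes 3 were tested, 1 was higher and 1 lower, and 8 had at most 3 reads in any library. Besides Tbx2, Tbx6, a factor of the presomitic mesoderm, passed with a log2 fold change of 0.66 (adjusted p = 0.0391 in edgeR's quasi-likelihood test). Mga, the most abundant of them, had -0.02. DESeq2 called Tbx2 alone of this list.

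Of 17 other TALE homeobox genes, the class of Meis1 and Meis2, 11 were tested, 2 were higher, 2 were lower and 7 did not pass. Mkx, a regulator of tendon cells, was higher (log2 fold change 1.44, adjusted p = 4.33e-08 in edgeR's quasi-likelihood test), with 29 and 52 reads in DPPIV- and 62 and 140 in DPPIV+ FAPs. It also differed between the mice, past the threshold in edgeR alone (log2 1.07 for mouse 2 against mouse 1). Irx3, of the Iroquois family, was higher at 0.80, and the repressor Tgif2 and the Meis relative Pknox2 were lower at -0.75 and -0.47. DESeq2 called Mkx alone of these 4.

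Of the 21 LIM and paired homeobox relatives and LIM cofactors, 7 were tested, of which 1 was higher (Lmx1a) and 5 were lower, with a median log2 fold change of -0.34. Isl1, which acts upstream in the early hindlimb bud, was lower at -0.84 (66, 77, 30 and 42 reads). Ldb2, a cofactor that LIM homeodomain proteins bind, was lower at -0.66 (adjusted p = 3.49e-09 in edgeR's quasi-likelihood test), as were the LIM-only genes Lmo1 at -0.65 and Lmo4 at -0.34. DESeq2 called 2 of the 6, Lmx1a higher and Ldb2 lower.

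Of 30 other transcription factors of limb patterning, 20 were tested, 5 higher and 5 lower, with a median log2 fold change of 0.00. Prrx2, a paired-type factor of limb mesenchyme, fell 2.26-fold (log2 fold change -1.18, adjusted p = 4.27e-50 in edgeR's quasi-likelihood test), and Etv4, a target of FGF signalling in the limb bud, fell 2.65-fold (-1.41). Prrx1, the relative of Prrx2, was higher at 0.37 (adjusted p = 2.59e-07 in edgeR's quasi-likelihood test). Hand2, which acts upstream of Shh, was lower at -0.77. Emx2, needed for the shoulder blade, was higher at 0.86, and Zbtb16, a zinc finger factor of limb patterning, at 0.60. Zbtb16 also differed between the mice, past the threshold in edgeR alone (log2 -0.32 for mouse 2 against mouse 1). Prrx2, Etv4, Prrx1, Emx2 and Zbtb16 were also called by DESeq2, and Hand2 was not.

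Of 18 limb signals and their targets, 9 were tested, 1 higher and 5 lower, with a median log2 fold change of -0.38. Cyp26b1, which breaks down retinoic acid, was lower at -1.30 (adjusted p = 5.82e-36 in edgeR's quasi-likelihood test). It had 483 and 955 reads in DPPIV- and 180 and 347 in DPPIV+ FAPs, so it also differed between the mice. Aldh1a2, a gene of retinoic acid synthesis, was lower at -0.33, although its libraries overlapped between populations. It too differed between the mice in both tools (edgeR log2 0.38 for mouse 2 against mouse 1). Rarb, a retinoic acid receptor gene, was higher at 0.54. The skeletal regulators Runx2 and Sox9 were lower at -1.95 and -1.08, and Bmp4 at -0.53. DESeq2 called 5 genes of this list lower (Cyp26b1, Runx2, Sox9, Bmp4 and Aldh1a2) and 0 higher, so Rarb was called by edgeR alone. Fgf10, the limb bud growth factor whose expression Tbx5 and Tbx4 start in the embryo, had 315 and 180 reads in DPPIV- and 289 and 156 in DPPIV+ libraries, or a log2 fold change of 0.01 (SE 0.14). It differed between the mice in edgeR (log2 -0.81 for mouse 2 against mouse 1), but not past the threshold in DESeq2. Wnt7a, the ectodermal inducer of Lmx1b, and Shh had 0 reads in all libraries, which allows up to 0.1437 to 0.1645 CPM. Over the 5 lists, edgeR called 10 of 50 tested genes higher and 18 lower, beside 15.9% and 17.2% of all genes, and DESeq2 called 5 higher and 9 lower, beside 7.97% and 8.59%.

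**Figure D5:**
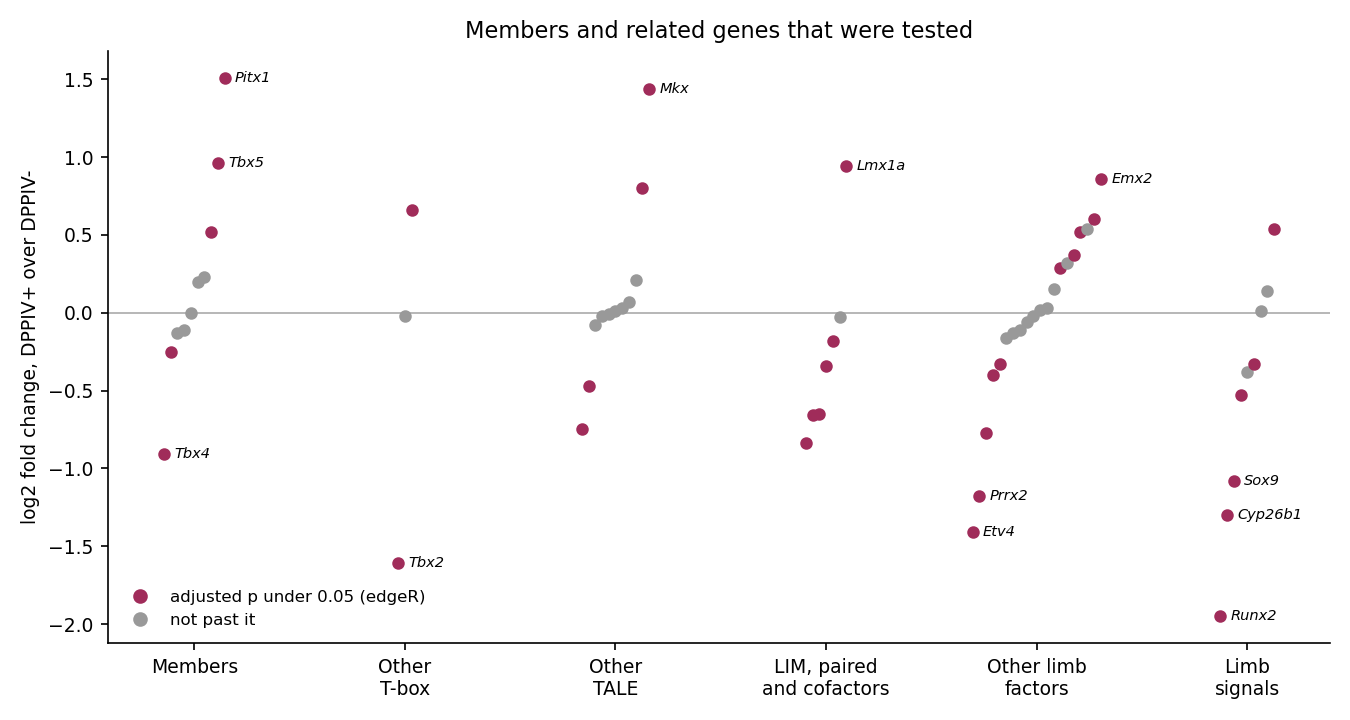
Log2 fold change of DPPIV+ over DPPIV- FAPs for every tested member and every tested gene of the 5 related lists, ordered by value within each list. Red points passed the threshold in edgeR's quasi-likelihood test and grey points did not, and the labelled extremes reach from Runx2 at -1.95 to Pitx1 at 1.51.

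Levels of the tenocyte markers, which moved with the populations, are set beside those of the members. The summed tenocyte markers were 1.81e+03 CPM (mouse 1) and 2.41e+03 CPM (mouse 2) in DPPIV- FAPs, and 1.94e+03 and 3.84e+03 CPM in DPPIV+ FAPs, so the populations overlapped in the sum while 5 of the 6 genes were higher. Scx, the defining factor of tendon cells, had 18 and 34 reads in DPPIV- and 66 and 143 in DPPIV+ FAPs, with more in mouse 2 in each. In the same order of libraries Tbx5 had 14.62, 14.62, 27.99 and 28.91 CPM and Pitx1 had 2.342, 3.17, 7.72 and 7.955 CPM. Tbx4, lower in DPPIV+ FAPs, had 16.53, 16.97, 7.275 and 10.64 CPM. The edgeR log2 difference of mouse 2 against mouse 1 was 1.07 for Scx. It was 0.19 for Pitx1, 0.24 for Tbx4 and 0.03 for Tbx5, none past the threshold. The part of tendon and mural cells in the differences of the 10 genes was not tested.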

How the data were processed

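RNA of sorted cells was sequenced in paired-end mode. The authors demultiplexed reads with bcl2fastq 2.20, aligned them to mm10 with STAR, tallied them per annotated gene with RnaReadCounter and deposited raw counts, without normalization. The annotation release and strand setting are not given in the sources used here, and the labels and the methods name different stranded library kits. The table listed 24421 symbols, 7548 of them with 0 counts in every library.

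From these counts, the 11588 genes that reached 2 CPM in 2 or more libraries were scaled by TMM and tested with edgeR 4.0.16 (limma 3.58.1, R 4.3.3) by the quasi-likelihood F test, two-sided, with mouse as a replicate block, Benjamini-Hochberg adjustment and 0.05 as the threshold. Moderation had infinite prior degrees of freedom, so spread was set by abundance alone. The edgeR SE is the log2 fold change over the square root of F, DESeq2 gives its own SE, and intervals are normal at 95%. Log2 ratios per mouse used a prior count of 0.125. Counts differed between mice beyond sampling noise (chi-square per degree of freedom 12.8 in DPPIV- and 9.5 in DPPIV+ FAPs). The sample titles give the animal, and mouse 2 minus mouse 1 correlated at 0.434 between the 2 populations (over genes, not replicates). In the main edgeR fit, p-values, SEs and intervals rest on the spread that genes of like abundance share over the 4 libraries. A gene's own spread between the mice does not enter them.

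Alternatives were DESeq2 1.42.0, no block, RLE or upper-quartile scaling, other filters, robust moderation, and libraries or mice left out. Tests were run on simulated counts first. Named genes are the 10 members, and from each related list at most the 5 largest called changes that shared their direction between mice. Fgf10, Mga, Wnt7a, Shh, Aldh1a2 and Prrx1 were named outside that rule, after their values were seen. The members and lists were chosen with earlier results of these data known. RPKM and shares used Python 3.11.15 with numpy 2.4.6, pandas 2.3.3 and scipy 1.17.1.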

Additional observations from a re-analysis of the deposited data

How the results depend on the processing

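Pitx1, Tbx5 and Tbx4 kept their direction and passed the threshold in all 11 alternatives with a test, and Tbx15 and Meis2 lost it in 5 and 3 of them. The 3 members called higher became 2 in DESeq2 and the 2 called lower became 1 in DESeq2 and 1 without the replicate block (mouse as a pairing). With each library left out in turn, a fit of 3 libraries with no mouse term, members called lower ran from 1 to 2. Over all genes, the 1837 called higher became 923 in DESeq2, 1001 without the replicate block and 632 to 1049 with a library left out, and the 1989 called lower became 995, 1119 and 732 to 1121. In the related lists, the 10 called higher became 5 in DESeq2 and 4 to 6 with a library left out, and the 18 called lower became 9 in DESeq2, 9 without the replicate block and 7 to 12 with a library left out. The fits with a library left out have fewer samples. The cause of the other changes was not tested. The median of the members stayed between 0.01 and 0.19 in fits that gave a test, and was -0.04 and 0.23 with mouse 1 or mouse 2 left out, which leaves values with no test. Lmx1b, at 0.00, kept its sign in 5 of 12 alternatives and was not tested with 2 CPM asked of 3 libraries. With the longest transcript as the length, chosen after seeing the data, mean RPKM went from 3.28 to 4.361 for Tbx3, from 1.434 to 1.999 for Meis1 and from 1.564 to 5.065 for Meis2. The order of the members changed with it. Depth limits Lmx1b most, with 35 to 48 reads.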
